A study of Homo sapiens with 38 samples.

Results

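The MYC network and the USF factors were described at 10 genes: MYC, MYCN, MAX, MXD1, MXI1, MNT, MLX, MGA, USF1 and USF2. Every deposited ChIP-seq region that overlapped a RefSeq record of one of these genes, extended by 50 kb on each side, was taken, and for MYC also every region in the 2 Mb downstream of the gene. This gave 522 of the 168784 regions in 3 lists: 112 of 29009 for GATA3, 80 of 26205 for BHLHE40 and 330 of 113570 for the histone mark H3K27ac.

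The cells were Jurkat, an established human line from a T-cell leukaemia, treated with the stimulants PMA (50 ng/ml) and ionomycin (500 ng/ml). Chromatin immunoprecipitation with sequencing (ChIP-seq) recovers the DNA that a protein or modified histone is fixed to, and a caller then lists the places where reads pile up. The labels gave 38 samples in 19 groups of 2. The 3 groups used here carried a control lentivirus (Ctrl_LV) and differed, per the labels, in the antibody, against GATA3, BHLHE40 or H3K27ac. Stimulation lasted 5 h per the sample labels and 2 h per the protocol, which was not resolved. The other 16 groups, with their guides, BHLHE40 over-expression and input controls, were not analysed here. A list merges the 2 samples of a group, so no value has a replicate spread or a test, and the depth is unknown. In a cell population, binding in fewer cells and weaker binding in every cell cannot be told apart. All 8 T-cell marker genes with a listed start carried an H3K27ac region with a −log10 q of at least 5 within 1 kb of it, against 0 of 2 for B cells, 0 of 2 for myeloid cells, 0 of 1 for erythroid cells and 0 of 1 for liver.

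MYC and its relative MYCN are basic helix-loop-helix leucine zipper activators that bind the E-box hexamer only as dimers with MAX. MXD1, MXI1, MNT and MGA also dimerise with MAX, occupy the same hexamer and mostly repress, while MLX leads a parallel branch that answers to glucose and shares some of these partners. USF1 and USF2 form their own dimers on the E-box. BHLHE40 is a helix-loop-helix repressor induced in activated T cells that reads the same hexamer, and GATA3 is the zinc-finger factor of T-cell identity that binds a GATA core. In T-cell leukaemia MYC is known to be driven by far distal enhancers, and H3K27ac marks active promoters and enhancers.

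The promoters shown first hold an E-box, a variant E-box or a GATA core and overlap a region of the factor that reads it. Their letters can be set against the positions of the summits, but the BHLHE40 summits of MNT, MXI1 and MGA lie outside the letters shown. Matches in USF2, MAX and MXD1 are not shown, because no region of the matching factor overlapped those promoters. They are RefSeq sequences of GRCh38.p14, from 250 bases before to 50 after a start, written 5′ to 3′ in the direction of transcription. MLX lies at chr17:42566850-42567149 on the plus strand and MNT at chr17:2401011-2401310 on the minus strand, with capitals marking the E-box CACGTG. The promoter of the third start of MXI1 lies at chr10:110225746-110226045 and that of the second start of MGA at chr15:41660155-41660454, both on the plus strand, with capitals marking CACGCG, a variant E-box, or its reverse complement. The promoter of the second start of USF1 lies at chr1:161044935-161045234 on the minus strand, with capitals marking the reverse complement of the GATA core GATAA.
MLX: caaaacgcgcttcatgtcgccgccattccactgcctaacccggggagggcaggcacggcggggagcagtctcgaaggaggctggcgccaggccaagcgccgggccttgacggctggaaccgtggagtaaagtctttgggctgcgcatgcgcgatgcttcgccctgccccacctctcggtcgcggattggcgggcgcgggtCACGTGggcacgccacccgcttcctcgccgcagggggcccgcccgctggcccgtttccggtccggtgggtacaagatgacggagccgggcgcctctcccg
MNT: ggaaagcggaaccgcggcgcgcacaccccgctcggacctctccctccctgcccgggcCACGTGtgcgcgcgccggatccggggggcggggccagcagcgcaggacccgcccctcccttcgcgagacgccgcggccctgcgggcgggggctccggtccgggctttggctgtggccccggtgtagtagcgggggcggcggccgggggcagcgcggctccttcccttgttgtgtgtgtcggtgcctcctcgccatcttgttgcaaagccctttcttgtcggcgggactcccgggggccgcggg
MXI1: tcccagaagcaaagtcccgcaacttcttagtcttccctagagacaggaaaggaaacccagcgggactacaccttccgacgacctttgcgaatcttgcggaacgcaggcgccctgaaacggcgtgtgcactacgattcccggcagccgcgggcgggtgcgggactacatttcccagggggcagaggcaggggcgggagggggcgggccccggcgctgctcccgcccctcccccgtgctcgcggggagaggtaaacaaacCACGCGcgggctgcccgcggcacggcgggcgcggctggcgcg
MGA: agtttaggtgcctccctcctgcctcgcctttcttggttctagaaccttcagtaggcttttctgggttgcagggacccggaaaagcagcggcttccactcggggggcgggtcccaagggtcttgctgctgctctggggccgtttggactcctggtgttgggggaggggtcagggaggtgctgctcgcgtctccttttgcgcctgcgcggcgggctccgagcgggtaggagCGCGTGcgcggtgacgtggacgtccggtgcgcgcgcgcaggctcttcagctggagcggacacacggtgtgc
USF1: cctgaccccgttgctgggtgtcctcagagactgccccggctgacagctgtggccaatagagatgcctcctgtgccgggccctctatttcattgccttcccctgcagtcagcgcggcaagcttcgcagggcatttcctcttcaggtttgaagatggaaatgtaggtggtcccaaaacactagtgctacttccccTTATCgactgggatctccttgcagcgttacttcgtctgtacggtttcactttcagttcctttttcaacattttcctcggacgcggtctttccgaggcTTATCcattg

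BHLHE40 was listed at the starts of nearly all of these genes. Within 1 kb of a gene's own start, 9 of 10 members had a BHLHE40 region, MYCN being the exception, against 49.6% of 15843 protein-coding genes with a listed start. GATA3 regions lay at the starts of 6 members, MYC, MAX, MXI1, MNT, MGA and USF1, against 23.7%, and the same 6 had both factors, against 22.2%. H3K27ac regions lay at all 10 starts, against 57.6%, and with a −log10 q of at least 5 at 9 of 10, again without MYCN, against 51.3%. All 3 lists had a region within 1 kb of a start at 6 members, against 21.9%, and the regions need not overlap. At MAX the GATA3 region did not overlap H3K27ac. The shares of all genes include genes without H3K27ac. Of promoters that overlapped H3K27ac, 91.0% with CACGTG and 83.8% without it overlapped BHLHE40, and 39.5% and 36.9% overlapped GATA3. BHLHE40 at 9 of 10 members is thus near the share at acetylated promoters, which was counted in the narrower promoter window. In that promoter window GATA3 was at 3 of 9 members, which is not above its share at acetylated promoters. A gene counts when any of its listed starts does, and MXI1 and MGA have 3 listed starts each. Among other protein-coding genes with a listed start, none had one within 1 kb of a member's start.

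The GATA3 count was 6 at 500 bp on each side of a start, against 22.0% of genes, and 7 at 5 kb, against 32.1%. Other definitions of the start gave lower counts. Within the 300-base RefSeq promoter it was 3 of the 9 members that have one, against 20.6% of genes, namely MNT, MGA and USF1: the GATA3 regions of MAX and MXI1 lie past the promoter, and MYC has no entry in the promoter table used here. With only the 5′ end of each gene record, a setting chosen after seeing the data, it was 4 of 10 against 22.1%. BHLHE40 was at 7 of 9 in the promoter, against 47.4%, and at 8 of 10 with the 5′ end, against 47.1%.

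Within the windows of 50 kb on each side the members held a median of 3 GATA3 regions, 4 BHLHE40 regions and 12.5 H3K27ac regions, against medians of 2, 2 and 8 over 20037 protein-coding genes. All 10 windows held all 3 lists, as did 76.1% of windows for GATA3, 80.0% for BHLHE40 and 92.6% for H3K27ac, so this is close to the background. USF1 had the most factor regions, with 7 of each factor, and its window also holds 4 other protein-coding genes. MLX had 7 BHLHE40 regions in a window with 7 other protein-coding genes. USF2 had 1 GATA3 region and 2 H3K27ac regions, fewer than any other member. The windows of MYC and MYCN hold no other protein-coding gene and had 3 and 2 GATA3 regions and 4 and 3 BHLHE40 regions.

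**Figure D1:**
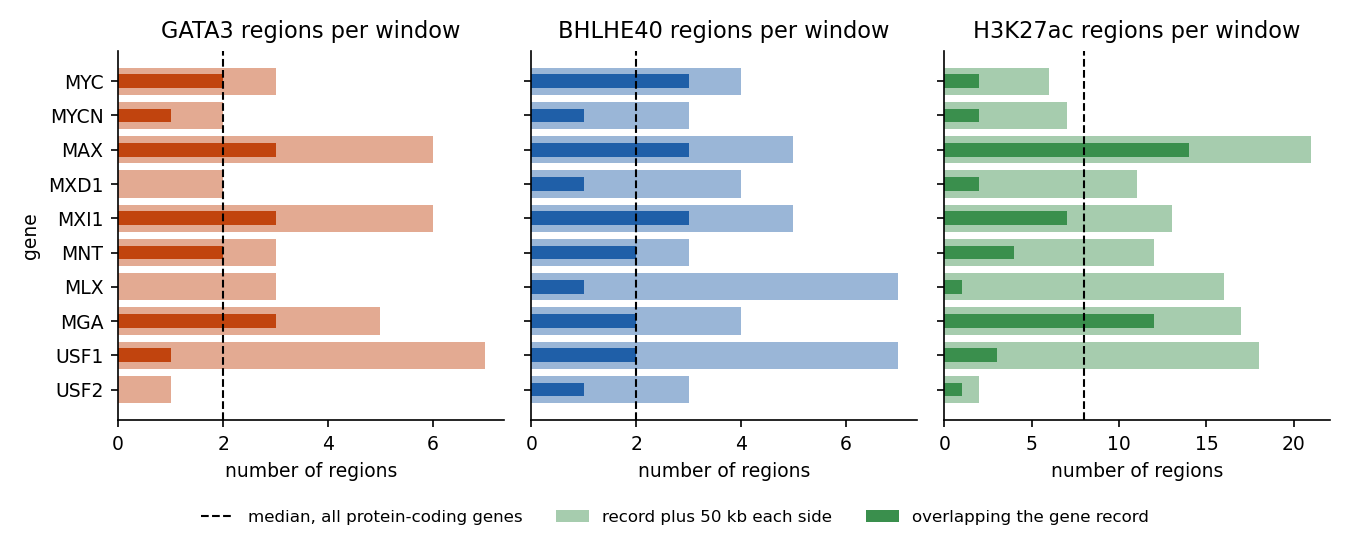
Number of GATA3, BHLHE40 and H3K27ac regions (x axis) in the window of each of the 10 genes (y axis). Wide pale bars count the gene record plus 50 kb each side, narrow dark bars the regions overlapping the record itself, and the dashed line is the median over 20037 protein-coding genes. USF1 has 7 regions of each factor and MAX has 21 H3K27ac regions, while USF2 has 1 GATA3 region.

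The members differed widely in the strength of the region at the start. The signal value is the authors' enrichment per region and was ranked only within its list. The strongest region at each start was set against the same quantity over all protein-coding genes with one, which number 3755 for GATA3, 7852 for BHLHE40 and 9130 for H3K27ac. The median percentile of the members was 63.1 in the GATA3 list, 42.3 in that of BHLHE40 and 51.55 in that of H3K27ac, so as a set they did not stand at the top of any list. USF1 stood at percentile 99.4 for GATA3 and MGA at 99.0 for H3K27ac, whereas MXD1 stood at 2.1 for BHLHE40 and MAX at 4.37 for GATA3.

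**Figure D2:**
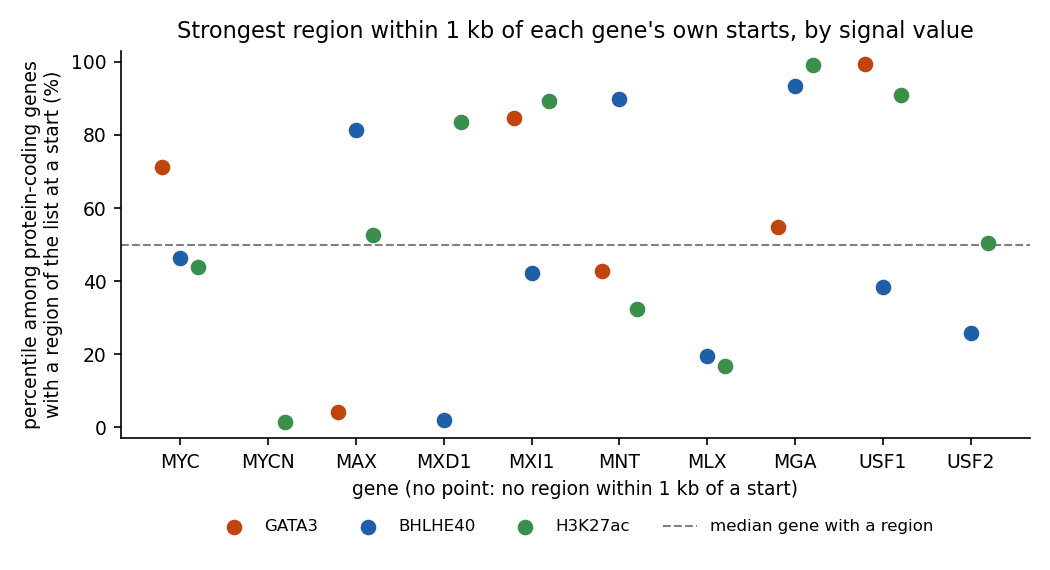
Percentile of the strongest region within 1 kb of each gene's starts (y axis, in %), among protein-coding genes with a region of that list at a start, for the 10 genes (x axis). Each point is 1 list, and a missing point means no region. USF1 is at 99.4 for GATA3, and MGA is at 93.3 for BHLHE40 and 99.0 for H3K27ac.

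MYC, the activator that gives the network its name, is on chromosome 8 at 127735434 to 127742951 on the plus strand. Both factors were listed as 3 regions each around its start, and each GATA3 region overlapped a BHLHE40 region. The GATA3 signal values were 4.76, 8.32 and 12.9, with summits at -1217, 127 and 778 bp from the start (negative is upstream). The overlapping BHLHE40 values were 10.4, 5.69 and 10.1, with summits at -1282, -136 and 710 bp. GATA3 was thus highest inside the gene, and BHLHE40 was of similar height on either side of the start and lower at it. The strongest of each stood at percentile 71.3 for GATA3 and 46.4 for BHLHE40 among genes called at their starts. H3K27ac reached 6.52 with a −log10 q of 26.1 and a summit at 215 bp, at percentile 43.8. A further BHLHE40 region of 4.07 lay 6.7 kb into the record and overlapped neither GATA3 nor H3K27ac.

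MYCN, the MYC relative best known from neural tissue and neuroblastoma, was the member without a factor at its start. Its record spans chromosome 2 from 15940550 to 15947004. The 1 H3K27ac region within 1 kb of the start had a signal value of 2.69 and a −log10 q of 1.51, at percentile 1.56 of called genes. Regions of both factors lay downstream instead. The stronger place was 33.1 kb from the start and outside any gene record, with GATA3 at 34.8 (rank 2804 of 29009) and BHLHE40 at 21.9 (rank 2620 of 26205). Their summits were 6 bp apart, and an H3K27ac region of 4.25 with a −log10 q of 6.24 lay there. A BHLHE40 region of 13.6 without GATA3 lay at 25.4 kb beside the highest H3K27ac value of the window, 8.38. A weaker pair, of 12.2 for GATA3 and 5.25 for BHLHE40, lay inside the MYCN record at 3.7 and 3.6 kb.

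MAX, the shared dimer partner, is on chromosome 14 from 65006101 to 65102695 on the minus strand. At its starts BHLHE40 had a signal value of 17.5 (percentile 81.3) and H3K27ac one of 7.2 (percentile 52.6), while GATA3 had 5.13, near the bottom of its list at rank 28152. The strongest place of the window was inside the gene record, about 57.0 kb from the nearest start, where GATA3 reached 66.1 (rank 799) and BHLHE40 44.3 (rank 506) with summits 30 bp apart. These were the highest BHLHE40 value and the second highest GATA3 value in the windows of the 10 genes. The GATA3 region spans chr14:65044443-65045234, and H3K27ac of 6.12 with a −log10 q of 33.4 lay beside it. The same place falls in the records of FNTB, CHURC1-FNTB and the microRNA gene MIR4706, and exons and introns are not told apart by the records. A second pair of 16.2 for GATA3 and 19.3 for BHLHE40 lay at 58.4 and 58.5 kb.

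MXD1, an antagonist that rises as cells leave the cycle, had a weak BHLHE40 region at its start: 4.63, percentile 2.1, with a summit at -599 bp. H3K27ac at the same place was high, at 11.1 and percentile 83.5, with a summit at -582 bp. No GATA3 region lay within 1 kb. The strongest factor pair of its window was at -21.1 kb, at the SNRNP27 gene, with GATA3 at 20.2 and BHLHE40 at 11.4. At ASPRV1, downstream, BHLHE40 had 7.23 and 8.82 and GATA3 had 5.67.

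MXI1, the antagonist also called MXD2, had factor regions at the second and the third of its starts. At the second start GATA3 had 19.1 (percentile 84.6) and BHLHE40 9.87 (percentile 42.3), with summits 10 bp apart at 962 and 972 bp past the start, and H3K27ac there reached 3.75. At the third start BHLHE40 had 7.77 and H3K27ac 12.5, at percentile 89.2, with summits at 280 and 267 bp, and no GATA3 region lay within 1 kb. The first start had no region of any list, so the factors and the mark stood at the inner starts, with GATA3 at 1 of them. The highest BHLHE40 value of the window was 20.2, inside the record 47.6 kb from the nearest start, with neither GATA3 nor H3K27ac on it.

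MNT, the antagonist present in cycling and resting cells alike, had a BHLHE40 region of 21.7 at its start, at percentile 89.7, with a summit at -620 bp. GATA3 there had 8.45 at percentile 42.7 with a summit 4 bp from the start, so the summits of the overlapping pair were 624 bp apart. H3K27ac had 5.62 at percentile 32.5, but its −log10 q of 67.0 stood at percentile 73.8. Inside the record, GATA3 of 26.7 lay 12.0 kb from the start without BHLHE40, and BHLHE40 of 17.1 lay 8.1 kb from it without GATA3. The highest H3K27ac value of the window, 11.8 with a −log10 q of 158.0, lay beside the latter.

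MGA, a large MAX partner that also carries a T-box domain, had the highest signal value at a start of the 10 genes for BHLHE40 and H3K27ac. By −log10 q, MNT was higher for BHLHE40 (204.0 against 194.0) and USF1 for H3K27ac (300.0 against 274.0). At the first start BHLHE40 had 25.5 (rank 1922, percentile 93.3), H3K27ac 21.3 (rank 123 of 113570, percentile 99.0) and GATA3 9.95 (percentile 54.9). The 3 summits lay between 632 and 701 bp past the start. At the second start and the third, which lie close together, BHLHE40 had 13.1 and H3K27ac 10.1, and no GATA3 region was listed. GATA3 regions of 5.73 and 10.5 further inside the record overlapped neither BHLHE40 nor H3K27ac.

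MLX, the partner of the glucose-sensing branch, had a BHLHE40 region of 7.32 at its start, at percentile 19.5, and H3K27ac of 4.16 at percentile 16.7. GATA3 was not listed within 1 kb. In its gene-dense window BHLHE40 was higher 11.6 kb from the start, at 15.4, where a GATA3 region of 12.4 overlapped it with a summit 46 bp away, and 42.4 kb away, at 11.1 without GATA3.

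USF1 had the strongest GATA3 region of any member start: 93.0, rank 321 of 29009, with a −log10 q of 1370.0. Its summit lay at -39 bp from the second start, and the region covered the first start too. The BHLHE40 region overlapping this GATA3 region had 9.36 at percentile 38.3, but its −log10 q of 94.6 stood at percentile 70.3. The BHLHE40 summit lay at -197 bp from the first start and 1151 bp from that of GATA3. The H3K27ac summit lay near that of BHLHE40, at -190 bp from the first start, with a value of 13.1 and a −log10 q of 300.0. Another pair lay at -24.0 kb, beside ARHGAP30, with BHLHE40 at 25.5 (rank 1925 of its list), GATA3 at 10.4 (rank 16143 of its list) and summits 30 bp apart.

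USF2, the dimer partner of USF1, had BHLHE40 of 8.02 at percentile 25.9, 630 bp past its start, and no GATA3 within 1 kb. By −log10 q that BHLHE40 region stood lower, at percentile 7.86. H3K27ac had 7.04 at -1130 bp and 6.27 at 592 bp. The only GATA3 region of the window was strong, 39.7 at rank 2248, and lay 41.6 kb downstream in MAG, a myelin gene, on a BHLHE40 region of 13.5 with a summit 35 bp away and no H3K27ac region.

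The letters of the promoters were then set against the summits. CACGTG occurred in the promoters of 2 of 9 members, MNT and MLX, against 10.9% of genes. CACGCG, searched on both strands, occurred in 3 of 9, MXI1, MGA and USF2, against 18.1%. CANNTG, which includes CACGTG, occurred in 8 of 9 against 70.5%, all but MAX. GATAA on either strand, a motif added after seeing the data, occurred in 3 of 9, USF1, MAX and MXD1, against 23.1%. These counts are near the shares over all genes, and no match says only that the letters are not in the window.

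Where both a motif and a summit were present, the distance varied by gene. In MLX the E-box begins at -50 bp and the BHLHE40 summit was 12 bp from it. In MNT it begins at -193 bp and the BHLHE40 summit was 429 bp away, while the GATA3 summit was 195 bp away. The CACGCG of MXI1 begins at 8 bp from the third start and the BHLHE40 summit was 269 bp from it, and that of MGA begins at -21 bp with a summit 413 bp away. In USF1 a GATA core begins at -57 bp from the second start, 16 bp from the GATA3 summit, and another begins at 40 bp, 81 bp from it. Across all promoters with a summit inside, the median distance of the BHLHE40 summit to CACGTG was 45 bp over 770 summits, with 30.3% within 20 bp, and that of GATA3 to GATAA was 35.5 bp over 350, with 33.7% within 20 bp. The BHLHE40 summits of MNT, MXI1 and MGA lie outside the promoter and are not among these. A match describes the letters and is not evidence of a bound site.

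**Figure D3:**
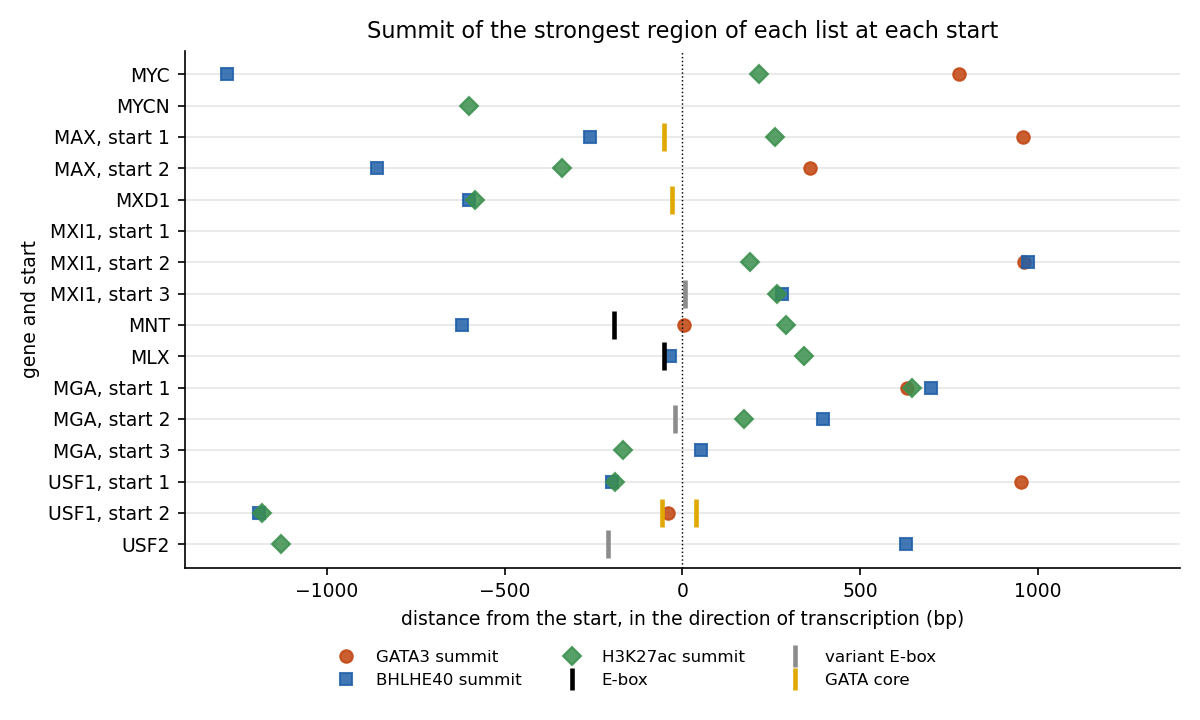
Position of the summit of the strongest GATA3, BHLHE40 and H3K27ac region at each listed start (x axis, bp in the direction of transcription, 0 is the start), with 1 row per gene and start (y axis). Vertical marks are matches to the E-box, its variant and the GATA core inside the promoter window, which was not searched for MYC. The BHLHE40 summit lies 12 bp from the E-box in MLX, and the GATA3 summit lies 16 bp from a GATA core at the second start of USF1.

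As the background for these matches, 58.2% of the 1851 promoters with CACGTG overlapped a BHLHE40 region (95% Wilson interval 56.0 to 60.5), against 41.2% of the 20348 without it (40.5 to 41.8). Among promoters that overlapped H3K27ac the shares were 91.0% and 83.8%. For CACGCG the BHLHE40 shares over all promoters were 61.1% with it and 39.5% without it, but for CANNTG they were 38.6% and 50.0%. For GATAA the GATA3 shares were 17.2% with it and 18.3% without it, and 50.4% and 35.3% among promoters on H3K27ac. Intervals cover counting error only. MAX, MXD1, MXI1, MGA, USF1 and USF2 were among the genes with BHLHE40 at a start and no CACGTG in a promoter.

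Across the 10 windows the factors shared 25 places. GATA3 regions overlapped BHLHE40 in 25 of 38 cases, 65.8% (49.9 to 78.8), against 48.7% over the whole GATA3 list. BHLHE40 regions overlapped GATA3 in 25 of 45 cases, 55.6% (41.2 to 69.1), against 53.0% over its list. H3K27ac lay on 55.3% of the GATA3 regions (39.7 to 69.9) against 49.1%, and on 82.2% of the BHLHE40 regions (68.7 to 90.7) against 76.4%. These intervals treat the regions of 10 windows as separate draws from a merged list, so they describe and do not test. The median distance between the 2 summits was 46 bp, and 16 of the 25 pairs were at most 50 bp apart. The widest gaps were at starts: 1217 bp in MAX, 1151 bp in USF1 and 624 bp in MNT.

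Downstream of MYC, both factors occupied a long stretch with almost no other coding gene. In the 2 Mb past its end there is 1 protein-coding record, GSDMC, against a median of 19 in the equivalent intervals of 15314 protein-coding genes. The interval held 74 GATA3 regions against a median of 24, and 99.4% of the intervals held fewer. It held 208 H3K27ac regions against a median of 97, and 98.6% held fewer. It held 35 BHLHE40 regions against 26, and 66.3% held fewer. Among the 262 intervals with as few protein-coding records the medians were 4 for GATA3, 2 for BHLHE40 and 36 for H3K27ac, with 22, 12 and 93 at the 95th percentile, and all 262 held fewer regions of each list than that of MYC. Intervals of neighbouring genes overlap, so these shares describe and do not test. The long noncoding RNA gene PVT1, the noncoding CCDC26 and LINC00977 hold part of these regions, and 58 of the 109 factor regions lay in no gene record.

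Beyond the regions at the start and in the MYC record, the first GATA3 region came at 223.8 kb and the first BHLHE40 region at 225.1 kb from the start, both in PVT1. Over 4 successive stretches of 500 kb, counted from the start, GATA3 had 10, 13, 35 and 16 regions. BHLHE40 had 9, 6, 12 and 8, and H3K27ac with a −log10 q of at least 5 had 10, 8, 20 and 18. All 3 were most frequent between 1000 and 1500 kb, but for H3K27ac the lead over the last stretch was narrow, 20 against 18. The H3K27ac count rests on the q-value, and part of the far interval had a low signal value for its q-value, as described below. Whether a minimum signal value would keep this order was not tested. The last BHLHE40 region was at 1679.3 kb, and GATA3 went on to 1974.0 kb.

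The strongest GATA3 region of the interval was in PVT1 at 257.8 kb, with 79.1 (rank 518 of 29009). It was followed by 61.6 at 1324.0 kb, 56.1 at 688.5 kb in LINC00824, 54.9 at 894.1 kb and 54.1 at 1432.8 kb. All 5 overlapped BHLHE40. The strongest BHLHE40 regions were 28.1 at 922.1 kb (rank 1546 of 26205), 25.9 at 894.1 kb, 24.0 at 257.8 kb, 23.3 at 225.1 kb and 22.5 at 1444.4 kb, and all 5 overlapped GATA3. For comparison, the strongest region at the MYC start itself was 12.9 for GATA3 and 10.4 for BHLHE40. Each was below the 5 strongest of its list downstream, where there were many more regions to rank. The median signal value of the downstream regions was 9.98 for GATA3 and 8.84 for BHLHE40, against 11.2 and 9.35 over the whole lists. So the downstream regions were not stronger as a set.

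**Figure D4:**
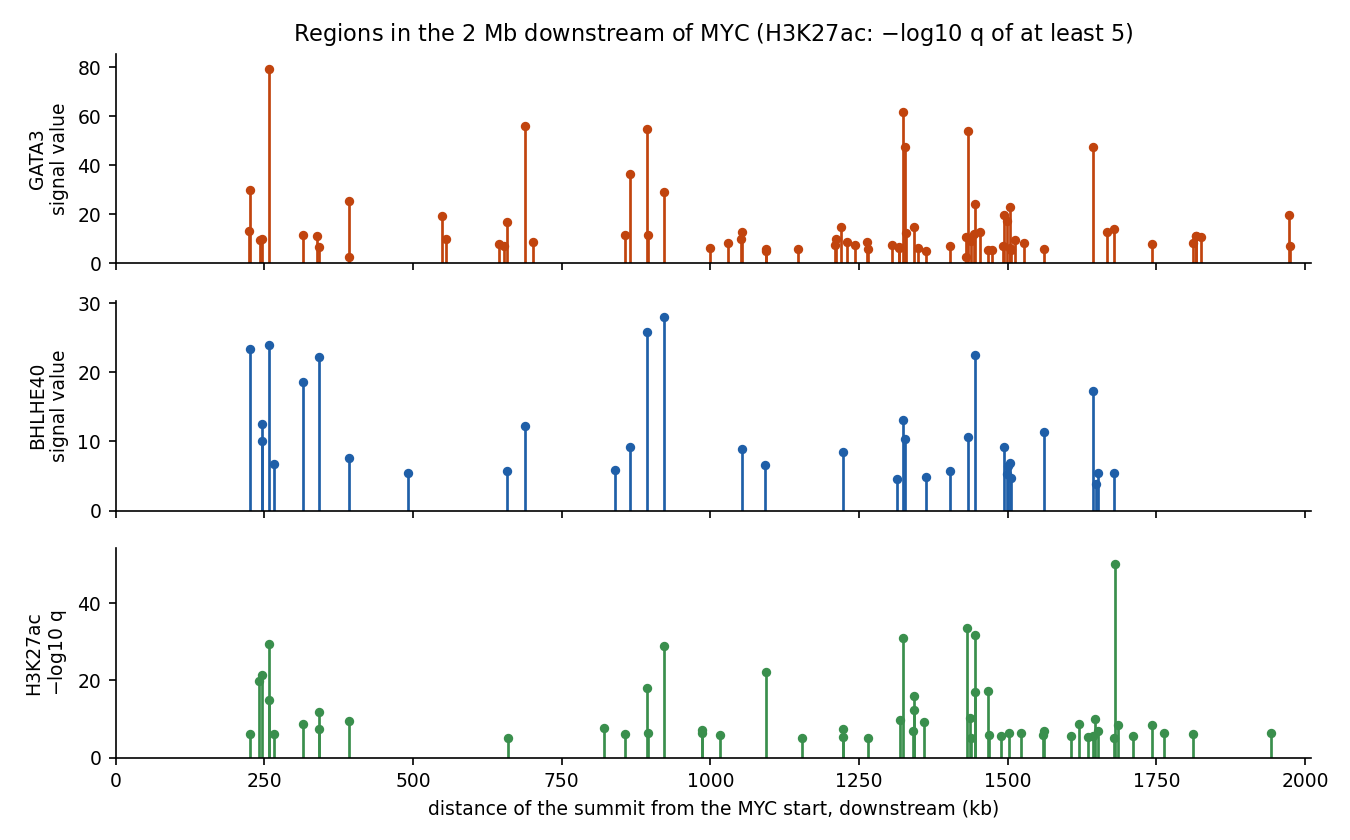
Regions in the 2 Mb downstream of MYC by distance of the summit from its start (x axis, kb). The upper panels give the signal value of 74 GATA3 and 35 BHLHE40 regions and the lowest the −log10 q of H3K27ac regions with at least 5 (y axes). No factor region lies before 223.8 kb, the strongest GATA3 region stands at 257.8 kb, and GATA3 is densest between 1000 and 1500 kb.

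BHLHE40 in this interval was mostly found together with GATA3, while GATA3 was often alone. Of the 35 BHLHE40 regions 27 overlapped GATA3, 77.1% (61.0 to 87.9), against 53.0% over the whole list. Of the 74 GATA3 regions 26 overlapped BHLHE40, 35.1% (25.2 to 46.5), against 48.7%. Both intervals treat neighbouring regions of a single locus as separate draws, so they describe and do not test. The whole lists also include regions at gene starts, whereas this stretch has almost no other coding gene. Shares over distal regions alone were not counted, so the contrast is not specific to this locus. H3K27ac lay on 50.0% of the GATA3 regions against 49.1%, and on 80.0% of the BHLHE40 regions against 76.4%, close to the whole lists. The 8 BHLHE40 regions without GATA3 were weak, with a highest value of 8.45. The strongest GATA3 region without BHLHE40 had 19.6 and lay in GSDMC.

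The 27 shared pairs had a median summit distance of 24 bp, and 19 were at most 50 bp apart. H3K27ac lay on 23 of them, with a −log10 q of at least 5 on 16, and 6 were in PVT1. The 10 of these 16 with the highest BHLHE40 value lay at 922.1, 894.1, 257.8, 225.1, 1444.4, 341.5, 315.4, 1643.0, 1324.0 and 246.1 kb. In 9 of the 10 the summits of the factors were at most 69 bp apart, and at 922.1 kb they were 213 bp apart. At 922.1 kb GATA3 had 29.1 and H3K27ac a −log10 q of 28.8, and at 894.1 kb they had 54.9 and 18.0. At 257.8 kb, in PVT1, GATA3 had 79.1 and H3K27ac 29.5 by −log10 q. In the same gene, at 341.5 kb, BHLHE40 had 22.3 (rank 2538 of its list) and GATA3 6.76 (rank 25327 of its list). The far places had strong GATA3 as well. At 1444.4 kb GATA3 had 24.1 and H3K27ac a −log10 q of 31.9, at 1324.0 kb 61.6 and 31.0, and at 1643.0 kb in CCDC26 47.3 and 5.54. By signal value H3K27ac at these 3 places had 3.69, 3.92 and 2.46, lower than the 6.95 at 257.8 kb. The H3K27ac region with the highest −log10 q of the interval, 50.2 at 1680.2 kb in CCDC26, overlapped neither factor, but a shared pair was close by. This pair, at 1679.3 kb, had 14.0 for GATA3 and 5.48 for BHLHE40, and overlapped a separate H3K27ac region with a −log10 q of 5.13. Measured between summits, the region at 1680.2 kb was 845 bp away from GATA3 and 916 bp away from BHLHE40.

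H3K27ac in the far portion of the interval had a low signal value for its q-value. Among regions with a −log10 q between 5 and 10, the median signal value was 4.17 over the 11837 of the whole list, with 2.63 and 5.09 at the 5th and 95th percentiles. Up to 1000 kb from the MYC start it was 4.25 over 11 regions, and from 1000 to 1300 kb it was 3.67 over 5. From 1300 to 1700 kb it was 2.82 over 18, ranging from 2.04 to 5.02, and from 1700 to 2000 kb it was 4.33 over 5. The distance classes were chosen after seeing the data. So a ranking by signal value and one by q-value order the places of this stretch differently, and the cause was not tested.

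**Figure D5:**
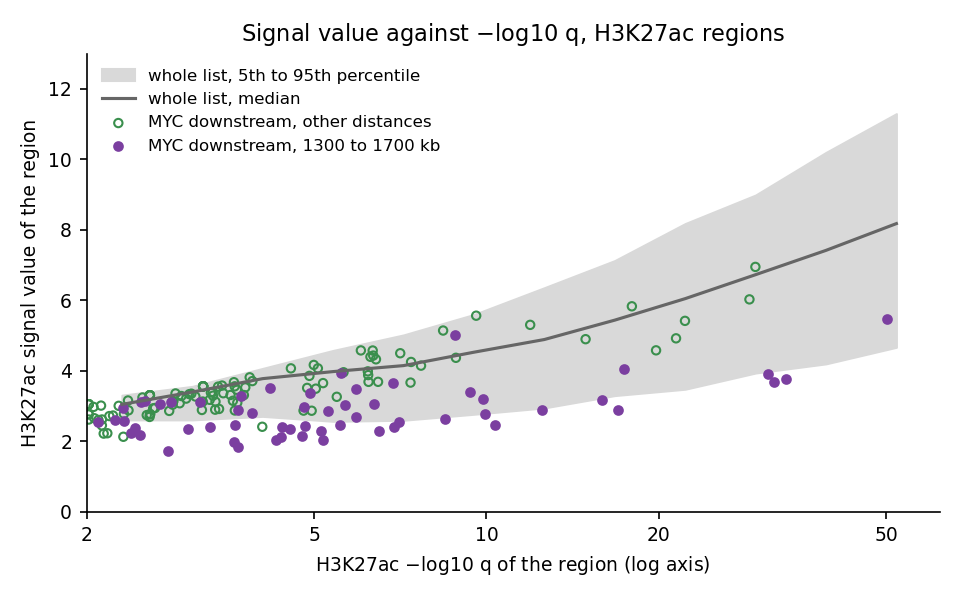
H3K27ac signal value (y axis) against −log10 q (x axis, log scale) for regions downstream of MYC with a −log10 q of at least 2. Filled points lie 1300 to 1700 kb from the MYC start and open points at other distances, and the band is the 5th to 95th percentile of the whole list around its median. Among regions with a −log10 q of 5 to 10, filled points have a median of 2.82 against 4.17 in the whole list.

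The wider network was read from 3 lists of genes, and the shares of all genes beside them include genes without H3K27ac. Of 10 other E-box factors, 7 had a BHLHE40 region at a start and 7 an H3K27ac region, but 1 had GATA3, the lysosomal regulator TFE3, against 49.6%, 57.6% and 23.7% of genes. The highest BHLHE40 values were 18.4 at TFE3, 14.8 at MXD4, 12.2 at MXD3 and 9.67 at TFEB. MLXIPL, TFEC and MITF, the last a factor of pigment cells, had no region of any list. Among 15 MYC cofactors and regulators with a listed start of 20, 13 had BHLHE40, 9 GATA3 and 14 H3K27ac, beside the same shares of genes. FBXW7, the ligase subunit that marks MYC for degradation, had 42.9 for BHLHE40, the acetyltransferase KAT5 28.4, the ligase subunit SKP2 26.0 and the deacetylase HDAC2 23.0. The corepressor SIN3B had no region of any list.

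Among 17 textbook MYC targets with a listed start of 20, BHLHE40 was listed at 15, GATA3 at 10 and H3K27ac at 16, against 49.6%, 23.7% and 57.6% of genes. Their BHLHE40 regions were strong, with a median percentile of 84.2 among called genes, where the members of the network itself had 42.3. The highest were 51.7 at the helicase gene EIF4A1, 38.0 at the nucleolar NOP56, 28.6 at the cell cycle kinase CDK4 and 27.7 at NPM1. CACGTG was in a promoter of 10 of the 17, against 10.9% of genes and 2 of 9 members. The list was picked as targets of MYC, which binds this hexamer, so a high share may be built into the choice. Of the genes with the highest values CDK4 had CACGTG, and EIF4A1, NOP56 and NPM1 did not. FBL had CACGTG and H3K27ac but no BHLHE40 region. TERT, with CACGTG in its promoter, had no region of any list.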

How the data were processed

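The lists hold the places bound or marked in stimulated Jurkat cells with a control lentivirus, 1 list per antibody and 2 samples per list. Per the submitters' processing notes, MACS2 (no version given), bcl2fastq 2.20 and hg38 were used. The aligner, the filters and the use of input are not given in the sources used here. The authors' deposited score of the factor lists ran from 540 to 1000, the range that an irreproducible discovery rate (IDR) of up to 0.05 gives, and 830 stands for 0.01. The H3K27ac list is named as pooled, has no such filter, and was read also with a deposited −log10 q of at least 5. The authors' signal value per region is what MACS2 writes as enrichment, and its reference is not stated. It was used to describe and rank regions within 1 list. An IDR filter keeps regions whose ranks repeat, so the factor and H3K27ac lists are not comparable in length, and narrow H3K27ac regions (median width 232 bp) can split 1 domain into several lines.

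Gene records, starts and promoters came from RefSeq (GRCh38.p14), matched by symbol. All 10 genes have a record and 9 have 15 promoters. MYC has no promoter entry, so the lower end of its record was used as its start. Regions overlapped at 1 bp or more, coordinates are 1-based, and no column of per-sample values was left out (0). Records do not tell exons, introns and untranslated regions apart.

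All 10 genes were named, with the strongest region per list at the start and up to 3 per list in the window. Downstream of MYC, the 5 strongest per factor and up to 10 triple overlaps were named, and from each gene list the 4 with the highest BHLHE40 value and those with no region. The members, gene lists and rules were chosen with earlier results of these data known. No test was run. Alternatives were other windows, summits, a score of at least 830, the −log10 q minimum and other motifs. The scripts ran on Python 3.11.15 with pandas 2.3.3, numpy 2.4.6, scipy 1.17.1 and, for plots, matplotlib 3.10.9. The counting functions were tested on simulated data.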

Additional observations from a re-analysis of the deposited data

How the results depend on the processing

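Of 79 alternatives to 26 results, 64 stayed within 1.5 times the count, or within the spread of the value, and 15 moved. With 100 kb on each side the windows held 60 GATA3 and 188 H3K27ac regions, and the gene records alone held 15 GATA3, 19 BHLHE40 and 48 H3K27ac regions. A −log10 q of at least 5 left 55 H3K27ac regions in the windows and 56 downstream of MYC, and 24 GATA3 regions there on such a region. In the RefSeq promoters GATA3 was at 3 members, where MYC has no entry. A score of at least 830 left 17 GATA3 regions on BHLHE40 downstream of MYC, 5 cofactor genes with GATA3 and 0 other E-box factors with it. That last count was 0 at 500 bp and 2 at 5 kb, beside 1 at 1 kb. CANNTG was in 8 promoters of members. No count of members with BHLHE40 or H3K27ac at the start moved by that rule. Within the RefSeq promoter H3K27ac was at 7 of the 9 members that have one, against 51.7% of genes, and BHLHE40 at 7 of 9. No paired analysis was possible because a list merges the 2 samples of a group, and leaving out a replicate was not run for the same reason. The depth is unknown, so a place without a region is not shown to be unbound.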
